A study of Drosophila melanogaster with 34 samples.

Results

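The sites described here are the 2′-O-methylated positions of the 3′ part of Drosophila 28S rRNA for which a guide RNA is listed. They were chosen by annotation alone, as sites on the 28S rRNA with a FlyBase identifier of a guide and a number above 3000 in the first site name, and 28S Cm3422 was left out. This gave 12 of the 72 rRNA sites measured in the series. In order of position they are Gm3152, Gm3184, Cm3298, Gm3324, Gm3326, Gm3348, Cm3412, Um3415, Am3420, Am3478, Cm3480 and Cm3491, where the letter before m is the methylated base and the number is the position on 28S rRNA as the deposited tables give it.

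In the nucleolus, a box C/D small nucleolar RNA pairs with rRNA, and the methyltransferase Fibrillarin, carried in the same particle, methylates the ribose of 1 nucleotide in the paired stretch. The 3′ part of the large-subunit rRNA holds the peptidyl transferase centre, where peptide bonds are made, and the A loop, which contacts the incoming aminoacyl-tRNA. RiboMeth-seq reads the mark as protection: alkali breaks RNA next to an unmethylated ribose, so a methylated position gives few fragment ends compared with its neighbours.

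The series has 34 libraries in 9 groups. S2R+, a Drosophila cell line that the labels call mesenchymal stem cells, received double-stranded RNA for RNA interference, directed at Fibrillarin (Fib cells, 4 libraries) or, as a control, at bacterial lacZ (LacZ cells, 4 libraries). The other 26 libraries came from female heads, in 7 groups. Flies were on 5% sucrose for 8 d (3 libraries) or on 5% sucrose with 2.5 nM paraquat, as labelled, for 8 d (3 libraries). Others were kept in darkness for 8 d at 18, 25 or 29 °C (4 libraries each). The last pair of groups spent 10 d on food labelled 0.25x sugar without a.a., called low-nutrient food here, or on 1x home made food (4 libraries each). The sources give no strain. No fly age is stated in words, and the titles of the sucrose and paraquat heads carry d17, which they do not explain. They also leave unsaid whether replicate libraries come from independent cultures or fly pools, and each p-value here weighs a difference against the scatter of the libraries, which may be technical. The tables hold rRNA positions only, so neither Fib mRNA nor any marker of S2R+ cells or heads could be checked.

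Library numbers fall into 4 runs, called sets here. Replicates 1 and 2 of both cell groups form set A, replicates 3 and 4 set B, the sucrose and paraquat heads set C, and the temperature and nutrient heads set D. What a set shared in the laboratory is not stated. Median coverage over the 72 sites was 28370.5 to 104241.5 reads between libraries, and coverage of the 12 sites ran from 4941 to 240625 reads. The level quoted is the authors' methylation score, which ends at 1 for full protection. Read ends are given as 5′ or 3′ ends at the position per 1000 reads of its coverage.

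The 12 sites lie within 339 nucleotides, and 7 of them have another site within 3 positions. The methylated base is G at 5 sites, C at 4, A at 2 and U at 1. Each site lists 1 to 6 guides, and 30 different guide identifiers are listed in all. Am3478 and Cm3480, 2 nucleotides apart, list the same 4 guides. Gm3324 lists 1 guide, FBgn0086075, which is also among the 3 guides of its neighbour Gm3326, again 2 nucleotides away. Cm3412 and Um3415 share 2 guides, and those 2 are also listed for Um586 of 18S rRNA. Because sites with a common guide or overlapping neighbourhoods are not independent, counts of sites below describe the sites and carry no p-value of their own.

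In heads the sites were close to full protection, with Gm3324 as the exception. The group means of the other 11 sites lay between 0.954 (Am3478 at 18 °C) and 0.995 (Cm3491 with paraquat), while those of Gm3324 lay between 0.747 on low-nutrient food and 0.879 with paraquat. Gm3324 was the lowest of the 12 in all 9 groups, cells included. Next lowest was Am3478 in 6 groups and Cm3480 in the other 3. Am3420 was the highest of the 12 in 6 of the 9 groups, with means of 0.946 to 0.994.

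**Figure D1:**
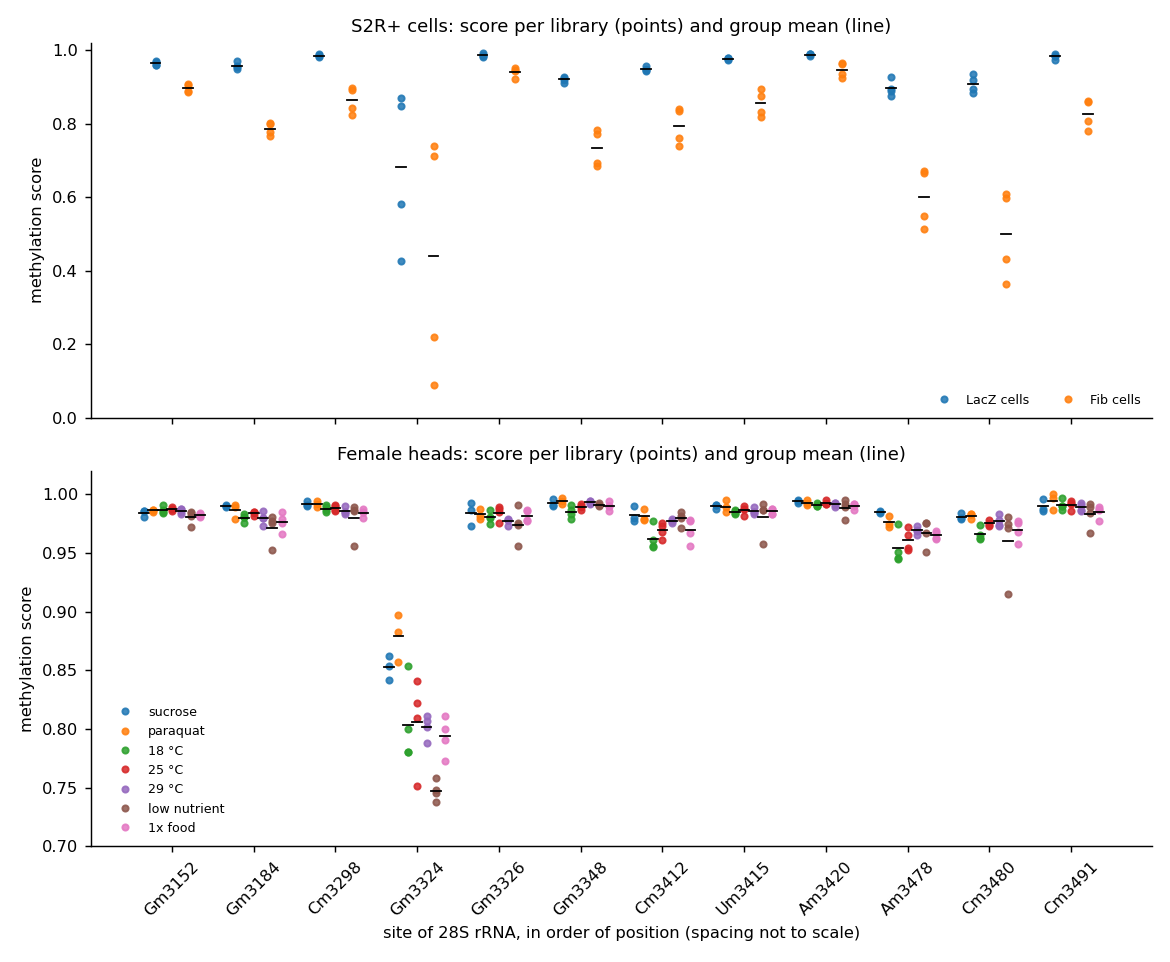
Methylation score (vertical axis, no unit) of the 12 sites in order of position (horizontal axis) in S2R+ cells (top, axis from 0) and female heads (bottom, axis from 0.7); each point is 1 library and each line a group mean. In heads Gm3324 lies between 0.738 and 0.897 and the other sites between 0.915 and 1; in Fib cells Am3478 and Cm3480 drop furthest among the sites whose libraries do not overlap with LacZ cells, on the deposited scale without centring.

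The ends behind these scores were unevenly divided. In heads, 5′ ends at Gm3324 numbered 7.12 to 20.3 per 1000 reads, and the other 11 sites never passed 1.71. The 3′ ends at Gm3324 in heads, at 0.451 to 3.06 per 1000, lay within the range of the other sites, which reached 15.0. Of the 408 site values, 64 had no 5′ end, and 1 (Cm3491 in paraquat replicate 3, score 1) had no 3′ end. In Fib cells, where ends were most frequent, mean 5′ ends outnumbered mean 3′ ends at 3 sites, Gm3324, Gm3326 and Gm3348, and 3′ ends outnumbered 5′ ends at the other 9.

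The knockdown of Fibrillarin asks which sites need the enzyme of the guided pathway. In Fib cells 11 of the 12 sites fell on the deposited score (limma across the 72 sites, Benjamini-Hochberg adjustment, threshold 0.05), beside 80.6% of all sites; after each library was centred on its own median, 3 of the 12 were lower and 5 higher than in LacZ cells. The median difference over the 12 sites was -0.156, against -0.143 over all 72. The libraries of the groups did not overlap at 11 of the 12 sites, beside 79.2% of all sites. The share and the median were thus close to those of the whole map, while the sites differed widely among themselves.

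Cm3480 had the largest difference of the 12. Its score was 0.883, 0.895, 0.934 and 0.919 in LacZ cells and 0.609, 0.598, 0.431 and 0.364 in Fib cells. Every Fib library lay below every LacZ library, and the means were 0.908 ± 0.0230 and 0.501 ± 0.122 (SD, n = 4 each). The difference was -0.407 (SE 0.0566, limma adjusted p = 0.00035), the 5th largest fall among the 72 sites. Most of its ends were 3′ ends, which went from 13.2 ± 3.14 to 66.1 ± 15.6 per 1000 reads.

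Am3478, which lists the same guides, came next among the sites that passed. Its scores were 0.875, 0.890, 0.928 and 0.895 in LacZ cells against 0.670, 0.667, 0.513 and 0.550 in Fib cells. The groups again stood apart, by -0.297 (SE 0.0383, limma adjusted p = 0.000253), which ranked 12th of 72. Am3478 passed in 17 of 18 alternative settings (largest limma adjusted p 0.46), and Cm3480 in 18 of 18. The setting in which Am3478 did not pass was neither a test of read ends nor a fit with a library left out. Gm3184, Gm3326, Cm3412, Am3420 and Cm3491 also passed in 17 of 18 settings. These counts take calls in either direction, and with centring Gm3326 and Am3420 passed as higher in Fib cells. The 3′ ends at Am3478 rose from 4.64 ± 1.18 to 19.3 ± 5.42 per 1000 (3′ ends tested alone, limma adjusted p = 4.32e-05).

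Gm3348 and Gm3184, G sites with 3 and 2 listed guides of their own, formed the next step. Gm3348 scored 0.919, 0.926, 0.911 and 0.925 in LacZ cells and 0.771, 0.783, 0.684 and 0.692 in Fib cells, a difference of -0.188 (SE 0.0243, limma adjusted p = 0.000253). It was the site with the most 5′ ends after Gm3324, 6.06 ± 0.623 per 1000 in LacZ cells and 22.0 ± 4.29 in Fib cells. Gm3184 scored 0.955, 0.948, 0.957 and 0.970 in LacZ cells and 0.803, 0.800, 0.777 and 0.765 in Fib cells. Its difference of -0.171 (SE 0.0111) had the smallest limma adjusted p of the 12, 2.6e-05, with ends of both kinds increased: 5′ ends from 1.30 to 10.1 and 3′ ends from 2.95 to 11.8 per 1000.

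At the lower end of the range stood 3 sites with the smallest falls on the score and the highest mean scores in Fib cells. Am3420, with 1 listed guide, scored 0.985 to 0.988 in LacZ cells and 0.923 to 0.966 in Fib cells (difference -0.0414, SE 0.0113, limma adjusted p = 0.00944). Gm3326 scored 0.982 to 0.993 against 0.922 to 0.950 (-0.0459, SE 0.00872, limma adjusted p = 0.00164), and Gm3152 0.960 to 0.970 against 0.887 to 0.908 (-0.0673, SE 0.00846, limma adjusted p = 0.000253). These falls were small on the score, and the groups still did not overlap. With centring the differences at Am3420, Gm3326 and Gm3152 turned positive, at 0.104, 0.0991 and 0.0777, since the library medians themselves fell by 0.145.

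The remaining sites that passed lay in between. The differences were -0.122 at Cm3298, -0.155 at Cm3412, -0.122 at Um3415 and -0.156 at Cm3491, with limma adjusted p of 0.000253 to 0.000585. Cm3298 and Um3415 turned positive with centring, and Cm3412 and Cm3491 stayed below 0 but no longer passed. Counted as 3′ ends, 3 of these had the largest proportional changes of the 12: 3′ ends in Fib cells were 9.57-fold those in LacZ cells at Cm3491, 8.47-fold at Cm3298 and 5.74-fold at Um3415, and 3.69-fold at Cm3412 (log2 scale with 0.5 ends added, limma adjusted p of 3.26e-06 to 8.48e-05). At Cm3480, the site with the largest score difference, the 3′ ends were 5.00-fold and the 5′ ends 8.37-fold those in LacZ cells. By 5′ ends the largest proportional change was 8.93-fold, at Gm3326 (limma adjusted p = 0.00307). The order of the sites thus depends on whether the score, the 3′ ends or the 5′ ends are read.

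Gm3324 was the site that did not pass on the score. Its scores were 0.869 and 0.847 in LacZ set A, 0.426 and 0.582 in LacZ set B, 0.740 and 0.711 in Fib set A, and 0.219 and 0.0896 in Fib set B. Within each set Fib libraries lay below LacZ libraries, and across sets the Fib libraries of set A lay above the LacZ libraries of set B. The pooled difference of -0.241 therefore had an SE of 0.179 (limma adjusted p = 0.259), and with the replicate number as a block the adjusted p was 0.0271 (limma), which brings the count to 12 of 12 sites. Within set A the difference was -0.132 (SE 0.0603, limma adjusted p = 0.0841) and within set B -0.349 (SE 0.0603, limma adjusted p = 0.00161).

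The spread at Gm3324 between sets was in the 5′ ends. LacZ libraries had 5.62 and 6.87 5′ ends per 1000 reads in set A and 33.1 and 27.0 in set B. Their 3′ ends were 6.15 and 7.28 in set A and 9.61 and 4.53 in set B, so the sets overlapped in 3′ ends and stood far apart in 5′ ends. Tested alone within the LacZ cells, 5′ ends were 4.79-fold higher in set B (limma adjusted p = 0.0724) and 3′ ends 0.987-fold (limma adjusted p = 0.986).

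The 3′ ends of Gm3324 rose in Fib cells to a like level in both sets. They were 17 and 15.2 per 1000 in set A and 16.2 and 17.3 in set B, above every LacZ library. The change was 2.46-fold (limma adjusted p = 0.000378, beside 84.7% of all sites with more 3′ ends), 2.39-fold within set A and 2.53-fold within set B. The 5′ ends, at 11.8 and 12.3 in set A and 44.5 and 52.3 in set B, were 1.93-fold and 1.61-fold higher than in LacZ cells of the same set (limma adjusted p = 0.00858 and 0.0300) but did not pass when the sets were pooled (1.77-fold, limma adjusted p = 0.347). Reading 3′ and 5′ ends separately was chosen after the data had been seen. By 3′ ends 12 of 12 sites rose in Fib cells, and by 5′ ends 11 of 12, beside 79.2% of all sites.

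**Figure D2:**
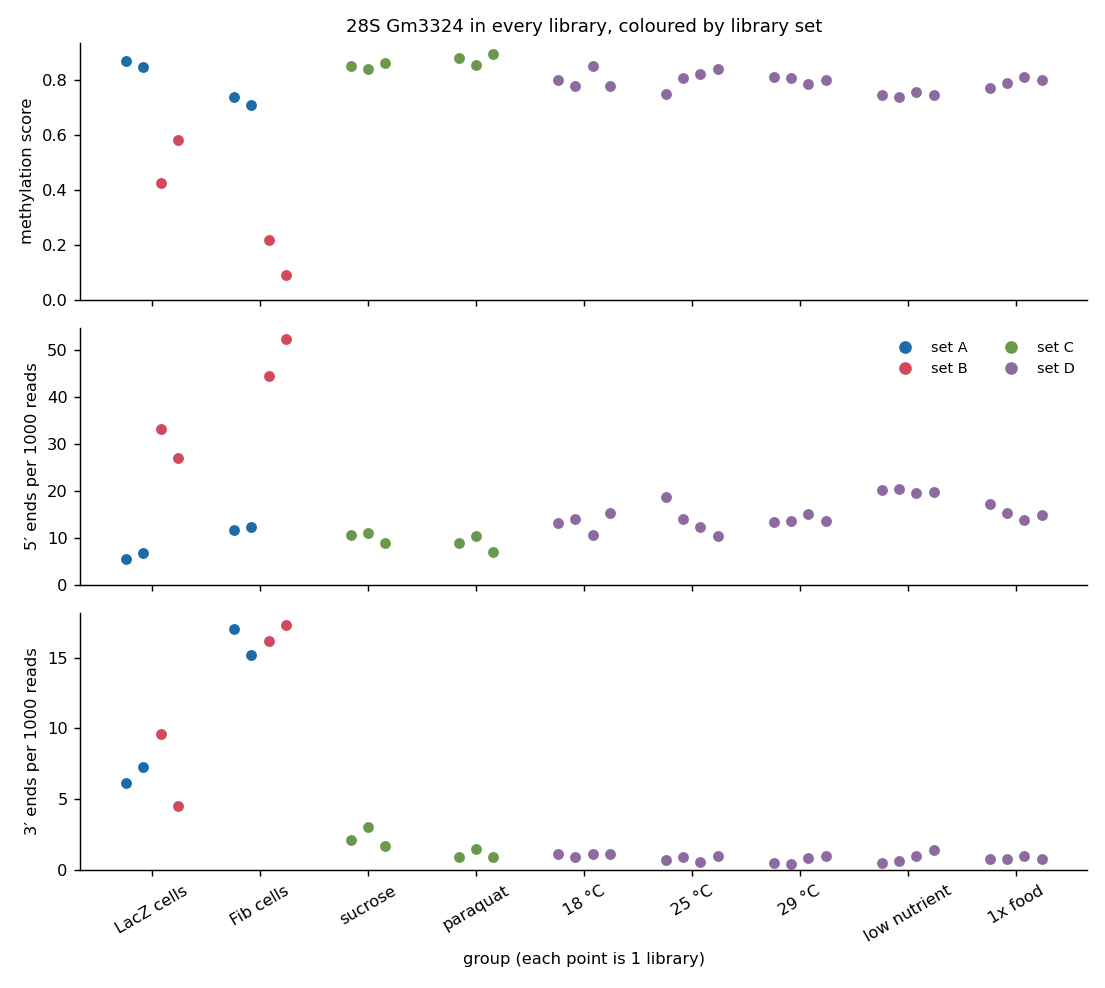
28S Gm3324 in each of the 34 libraries: methylation score (top), 5′ ends per 1000 reads (middle) and 3′ ends per 1000 reads (bottom), with all axes from 0, groups on the horizontal axis and colour by library set. LacZ and Fib libraries of set B have 27.0 to 52.3 5′ ends per 1000 against 5.62 to 12.3 in set A, while 3′ ends separate LacZ (4.53 to 9.61) from Fib cells (15.2 to 17.3) in both sets.

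Between the LacZ sets, Gm3324 differed by -0.354 on the score (set B less set A), the largest difference of the 72 sites. With only 4 libraries the limma adjusted p was 0.194 (1.39% of all sites passed), and in a fit of all 8 cell libraries, added after the data had been seen, it was 0.0410. The other 11 sites differed by -0.00678 to 0.0373 between the same sets, and none passed. Gm3326, which shares a guide with Gm3324 and lies 2 nucleotides away at nearly the same coverage, scored 0.993 and 0.986 in LacZ set A and 0.982 and 0.983 in set B. In heads, where the sets carry different treatments, Gm3324 lay at 0.842 to 0.897 in set C and 0.738 to 0.854 in set D, and treatment and set cannot be told apart.

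The knockdown differences also depended on the set at most other sites. In set B the fall was deeper at 9 of the 12 sites on the score (interaction of knockdown and set, limma adjusted p of 0.00128 to 0.0204), beside 55.6% of all sites. The differences passed at 11 of 12 sites in set A (80.6% of all sites) and at 12 of 12 in set B (83.3%). At Cm3480 the difference was -0.285 (SE 0.0214) in set A and -0.529 (SE 0.0214) in set B, and at Am3478 -0.214 and -0.380 (SE 0.0161 each). Gm3152, Gm3324 and Gm3326 did not pass the interaction. On the log2 odds of the score 3 sites passed it, Am3420, Am3478 and Cm3480, beside 16.7% of all sites, and on 5′ or 3′ ends none of the 12 and none of the 72 did.

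**Figure D3:**
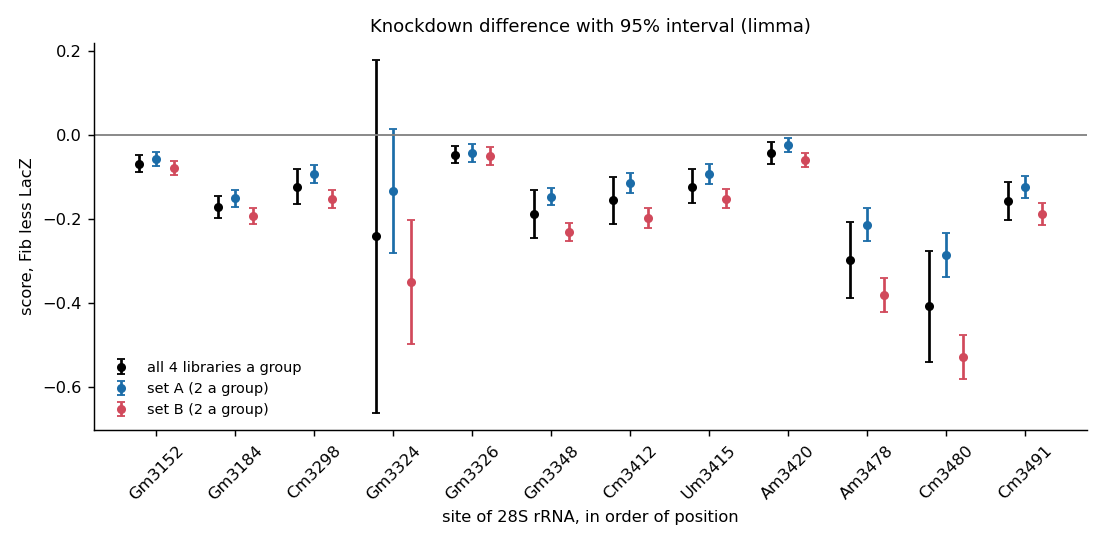
Difference in methylation score, Fib less LacZ cells (vertical axis, deposited scale without centring), at the 12 sites in order of position, from all 4 libraries a group (black), set A (blue) and set B (red); points are limma estimates and bars their 95% intervals. Set B estimates lie below set A estimates at all 12 sites, with the widest interval, -0.661 to 0.179, at Gm3324 over all libraries.

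Of the 4 other 28S sites above 3000, for which the tables list no guide, 1 passed in the knockdown. Um[Psi]3454 and Gm3455 are annotated with a named methyltransferase instead of a guide, and Am3006 and Um3162 as of unknown guide. Um[Psi]3454 fell by 0.0511 (SE 0.0108, limma adjusted p = 0.00262). The differences at Am3006, Um3162 and Gm3455 were 0.0124, 0.00985 and -0.0156, none past the threshold. Am3478 lies 24 nucleotides beyond Um[Psi]3454, so sites with large and small differences stood close to each other in this stretch.

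Control cells were also set against control heads (sucrose, 25 °C and 1x food; 11 libraries). At 8 of the 12 sites the LacZ cells scored lower (limma across the 72 sites), beside 68.1% of all sites lower and 72.2% in either direction; with centring, 3 of the 12 were lower and 6 higher, the library medians differing by -0.028. The libraries of LacZ cells and control heads did not overlap at 5 of the 12 sites (Gm3152, Gm3348, Um3415, Am3478 and Cm3480), beside 38.9% of all sites. No set held both cells and heads, and the source of the RNA and the set cannot be told apart.

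The 3 sites whose difference stayed negative and past the threshold with centring were Gm3348, Am3478 and Cm3480. Gm3348 scored 0.986 to 0.996 in control heads and 0.911 to 0.926 in LacZ cells (difference -0.0703, SE 0.00258, limma adjusted p = 7.78e-11). Am3478 differed by -0.0734 (SE 0.00711, limma adjusted p = 1.10e-06) and Cm3480 by -0.0673 (SE 0.00729, limma adjusted p = 3.25e-06). Their cell and head libraries did not overlap. These 3 sites also fell by 0.188, 0.297 and 0.407 in Fib cells, a comparison that uses the same LacZ libraries.

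**Figure D4:**
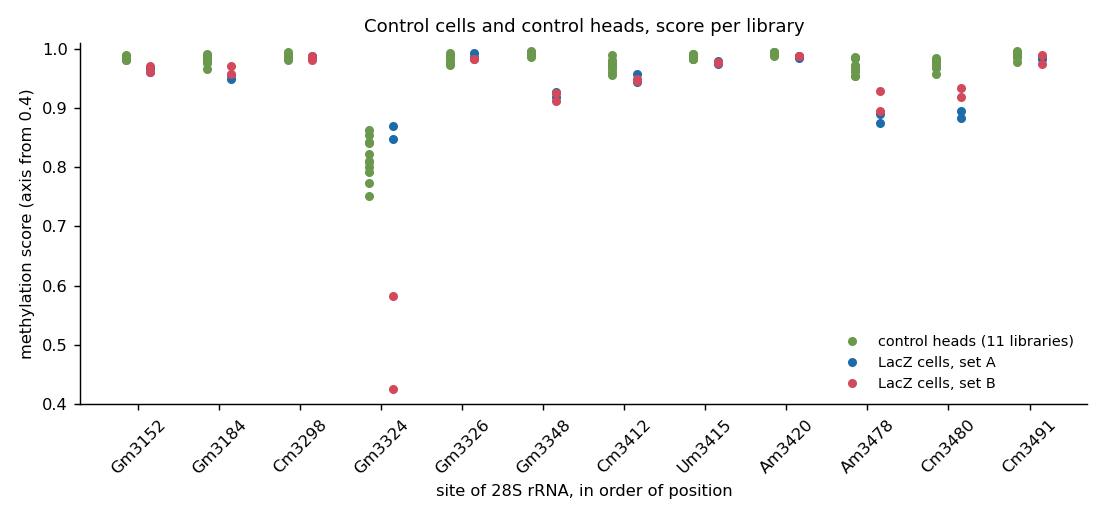
Methylation score (vertical axis, from 0.4, deposited scale without centring) of the 12 sites in 11 control head libraries (green) and 4 LacZ cell libraries (blue, set A; red, set B); each point is 1 library. Cells and heads do not overlap at Gm3152, Gm3348, Um3415, Am3478 and Cm3480, and at Gm3324 the LacZ libraries of set A (0.847 and 0.869) lie in or above the upper part of the head range while those of set B (0.426 and 0.582) lie below it.

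The other sites that passed were lower in cells by small amounts: Gm3152 by -0.0205, Gm3184 by -0.0261, Cm3412 by -0.0250, Um3415 by -0.0109 and Am3420 by -0.00504. With centring all 5 of these differences were above 0. Cm3298 (-0.00319, 95% interval -0.00744 to 0.00107), Gm3326 (0.00223, -0.00607 to 0.0105) and Cm3491 (-0.00620, -0.0130 to 0.000582) did not pass. Gm3324 differed by -0.137 (SE 0.0631, limma adjusted p = 0.0686) on the score, and it passed without LacZ replicate 1 or 2 (limma adjusted p = 0.0115 and 0.0167), as Cm3491 did without LacZ replicate 4 or 1x food replicate 4 (0.0408 and 0.0404). The 3′ ends of Gm3324, however, were 5.69-fold more frequent in LacZ cells than in control heads (limma adjusted p = 1.60e-07, beside 63.9% of all sites with more 3′ ends), and every LacZ library lay above every head library. For its 5′ ends the pooled ratio of 1.06 (limma adjusted p = 0.864, beside 62.5% of all sites with more 5′ ends) averages sets on opposite sides of the heads. LacZ set A, at 5.62 and 6.87 per 1000, lay below every control head library (8.84 to 18.7), and set B, at 33.1 and 27.0, above every one.

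Temperature was compared across heads kept at 18, 25 and 29 °C, which share 1 fit and whose pairwise comparisons share libraries. At 29 °C against 18 °C, 2 of the 12 sites were higher (limma), beside 19.4% of all sites higher and 20.8% in either direction. With centring, which takes off a rise of 0.0057 in the library medians, 6 of the 12 were lower and 1, Cm3480, higher (29.2% and 12.5% of all sites). With the replicate block, or with all 9 groups in 1 fit, none of the 12 passed. By 5′ ends 3 sites had fewer ends at 29 °C, Gm3184, Gm3348 and Cm3480, beside 40.3% of all sites, and by 3′ ends none of the 12 passed. Gm3348 scored 0.987, 0.983, 0.991 and 0.979 at 18 °C and 0.994, 0.993, 0.992 and 0.994 at 29 °C. The groups did not overlap, as at 1 of the 12 sites and at 18.1% of all sites. The difference was 0.00775 (SE 0.00233, limma adjusted p = 0.0414).

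Cm3480 scored 0.963, 0.965, 0.974 and 0.962 at 18 °C and 0.983, 0.978, 0.974 and 0.973 at 29 °C. The groups overlapped at replicate 3 of 18 °C, and the difference was 0.0111 (SE 0.00310, limma adjusted p = 0.0339). Cm3412 (0.0148, SE 0.00483, limma adjusted p = 0.0502) and Am3478 (0.0150, SE 0.00659, limma adjusted p = 0.131) did not pass. Replicate 3 at 18 °C was the highest of its group at all 4 of these sites. Without it, Gm3348, Cm3412, Am3478 and Cm3480 all passed, by 0.00974, 0.0197, 0.0219 and 0.0139, and without any other 18 °C library none of the 12 did. Without 29 °C replicate 1 or 2 none passed either, and without 29 °C replicate 3 or 4 or 25 °C replicate 2 or 3 Cm3480 alone did. Without 25 °C replicate 1 or 4, Gm3348, Cm3412 and Cm3480 passed. Over the 12 fits with 1 library left out, Cm3480 thus passed in 7, Gm3348 and Cm3412 in 3 each and Am3478 in 1.

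At 25 °C the means of these 4 sites lay between those at 18 and 29 °C. At the other 8 sites the mean at 25 °C was above those at both 18 and 29 °C. For Gm3348 the 3 means were 0.985 ± 0.00514, 0.990 ± 0.00184 and 0.993 ± 0.00118 (SD, n = 4 each). Against 25 °C none of the 12 sites passed at 29 °C (6.94% of all sites did) or at 18 °C (1.39% did). At an unadjusted threshold of 0.05 limma called 1 of the 12 sites at each, beside 20.8% of all sites at 29 °C and 15.3% at 18 °C. Gm3326 differed by -0.00735 at 29 °C, and Cm3480 by -0.00948 at 18 °C. Libraries at 25 and 29 °C did not overlap at 1 of the 12 sites, Cm3412, beside 23.6% of all sites, and those at 18 and 25 °C overlapped at all 12 (5.56% of all sites did not).

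**Figure D5:**
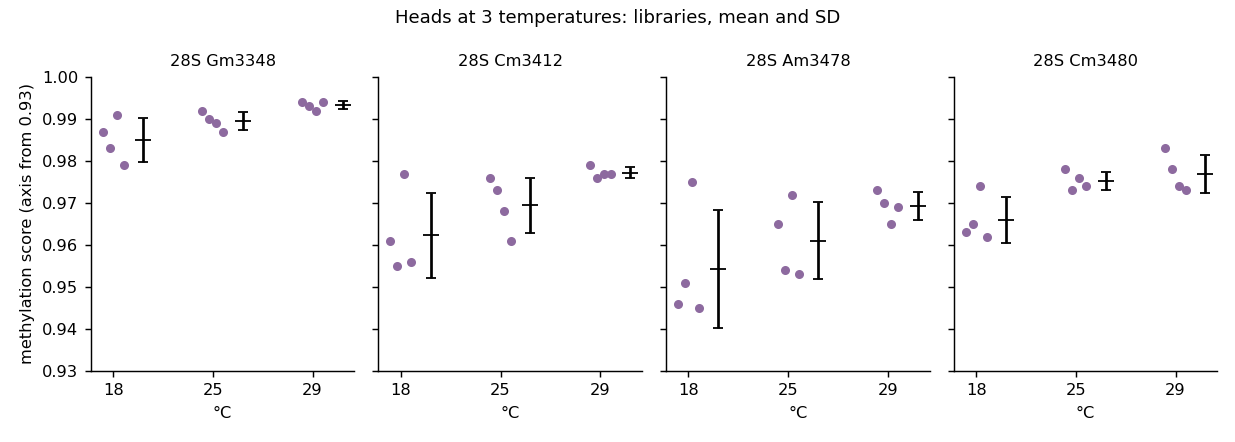
Methylation score (vertical axis, from 0.93, deposited scale without centring) at 18, 25 and 29 °C (horizontal axis) for Gm3348, Cm3412, Am3478 and Cm3480 in heads; points are libraries, and the bars beside them the mean and SD of 4 libraries. Replicate 3 at 18 °C is the highest 18 °C point in each panel, and the 4 libraries at 29 °C are spread less than those at 18 °C.

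Low-nutrient food against 1x food gave 1 site of the 12, Gm3324, beside 4.17% of all sites (limma). It scored 0.745, 0.738, 0.758 and 0.748 on low-nutrient food and 0.773, 0.791, 0.811 and 0.800 on 1x food. The 4 low-nutrient libraries lay below the 4 others, which happened at 1 of the 12 sites and at 13.9% of all sites. The difference was -0.0462 (SE 0.00823, limma adjusted p = 0.0200).

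At Gm3324 the 5′ ends separated the foods and the 3′ ends did not. Low-nutrient libraries had 20.2, 20.3, 19.6 and 19.7 5′ ends per 1000 reads, and those on 1x food 17.3, 15.3, 13.8 and 14.9. Tested on the log2 scale, the 1.31-fold difference did not pass (limma adjusted p = 0.190). The 3′ ends were 0.905 ± 0.401 and 0.846 ± 0.0929 per 1000 (limma adjusted p = 0.998). The call at Gm3324 was lost without low-nutrient replicate 1 or 2 or 1x replicate 4 (limma adjusted p = 0.0770, 0.0536 and 0.0772). At the other 11 sites the differences lay between -0.00921 (Cm3480) and 0.00991, and 8 were below 0. Without low-nutrient replicate 4, 7 of these 8 were above 0, Cm3480 at 0.00609, and the 11 differences lay between -0.00159 and 0.0128.

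Paraquat against sucrose moved none of the 12 sites and none of the 72 past the threshold (limma); at an unadjusted threshold of 0.05 there were 1 of the 12 and 8 of the 72 (11.1%). The 1 site was Am3478, with 0.985, 0.986 and 0.984 on sucrose and 0.975, 0.972 and 0.982 with paraquat. The groups did not overlap (11 of the 72 sites, 15.3%, did not), and the difference was -0.00888 (SE 0.00309, limma adjusted p = 0.352). Gm3324 was higher with paraquat by 0.0262, with overlapping libraries (95% interval -0.00195 to 0.0543, limma adjusted p = 0.451). At the other 10 sites every difference lay between -0.00336 and 0.00445, and the widest 95% interval was -0.0160 to 0.0131, at Gm3326. With 3 libraries a group these intervals bound what could be seen.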

How the data were processed

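RiboMeth-seq of 34 libraries was analysed from 1 deposited table per library, each with the same 72 rRNA sites. Alkaline hydrolysis took 16 min at 96 °C on 150 ng of RNA, followed by 50 bp single reads, per the labels' protocols. The submitters' processing notes name Trimmomatic 0.39, Bowtie2 and dm6. The sources used here name no alignment target, read filter or formula for the score. The authors deposited a methylation score, used as it stands, and 2 other scores, used as alternatives. The deposited coverage signal counts reads over the site, and the deposited 5′ and 3′ ends are whole numbers, with 0.1 for none, read here as 0. Intervals come from the spread between libraries.

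Scores were compared with limma 3.58.1 (R 4.3.3; lmFit, eBayes, two-sided) over all 72 sites, with Benjamini-Hochberg adjustment and a threshold of 0.05; tables were made with Python 3.11.15, numpy 2.4.6, pandas 2.3.3 and scipy 1.17.1. The fits were tested on simulated data. Alternatives were the log2 odds of the score (0.01 added), centring, read ends per coverage (0.5 added), the other scores, a coverage minimum of 1000, all 9 groups in 1 fit, blocks and leaving out libraries. The sites, lists and settings were chosen with earlier results of these data known. Every one of the 12 sites is named, and beside them only the 4 other 28S sites above 3000 with no listed guide. In Fib and LacZ cells, libraries of the same number deviated together from their group means over the 72 sites (correlations 0.574, 0.523, 0.165 and 0.354). The group means were taken over both sets, so a shift shared by a set also enters these correlations. They cannot tell pairing by number from set, and the labels state no pairing. The pooled knockdown tests used no block except where one is named. No library pair within a group agreed within sampling noise (48 pairs, chi-square per degree of freedom at least 2.10, p at most 1.63e-07). The reference gene table named none of the 30 guide identifiers, and guides are given by identifier or number.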

Additional observations from a re-analysis of the deposited data

Results flagged for a closer look

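Each of the 12 sites was examined in each of the 7 groups with 4 libraries, 84 sets of values, for a library whose gap to the nearest of the others took up nearly the whole range of the group. Chance gives this in about 1 in 20, and 4 were found. At Cm3298, low-nutrient replicate 4 scored 0.956 and the other 3 libraries 0.986 to 0.989. At Um3415 the same library scored 0.958, against 0.987 to 0.992. At Cm3480 it scored 0.915, against 0.971 to 0.981. This library was the lowest of its group at 11 of the 12 sites, Gm3324 being the exception, and its 3′ ends were the most frequent of the group at 11 of the 12, Gm3348 being the exception, with 15.0 per 1000 reads at Cm3480 against 3.25 to 4.98. At Am3420, LacZ replicate 1 scored 0.985 and the other 3 LacZ libraries 0.988.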

How the results depend on the processing

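In the knockdown 8 to 12 of the 12 sites passed under every setting tried, in the direction of a fall except with centring, where Gm3152 (0.0777), Cm3298 (0.0230), Gm3326 (0.0991), Um3415 (0.0233) and Am3420 (0.104) were higher; leaving out 1 library at a time gave 11 to 11, and the replicate block 12. The count for 29 against 18 °C was 2; it was 7 with centring (6 lower, 1 higher, Um3415 at -0.00512), 1 with either other score, 0 by 3′ ends, 0 with all 9 groups in 1 fit, 0 with the replicate block, and 0 to 4 with 1 library left out, and by 5′ ends it was 3, all with fewer ends at 29 °C: Gm3348 and Cm3480, as on the score, and Gm3184 (1.56 on the log2 scale), whose score difference was below 0 and did not pass. For 29 against 25 °C it was 0, 2 with centring and 1 by 5′ ends (Gm3184, 1.33), and for 18 against 25 °C it was 0 to 2 with 1 library left out (2, Cm3412 and Cm3480, without 18 °C replicate 3). On low-nutrient food the 1 call became 0 on log2 odds, by 5′ ends, by 3′ ends (Gm3324, 0.00334), on 1 of the other scores and with all groups in 1 fit, and 0 to 1 with 1 library left out. Cells against heads gave 5 with all groups in 1 fit and 7 with the set as a random block; with centring Gm3152 (0.00753), Gm3184 (0.00194), Cm3298 (0.0249), Cm3412 (0.00303), Um3415 (0.0172), Am3420 (0.0230) and Cm3491 (0.0218) turned positive, Gm3184 and Cm3412 not past the threshold; the 6 that passed as higher were the other 5 and Gm3326 (0.0303). Between LacZ sets 1 site, Gm3324, passed on log2 odds, 1 in the fit of all 8 libraries and 0 to 1 with 1 library left out (1 without LacZ replicate 3 or 4, which leaves 1 library in set B, assumed to vary like the others). The interaction of knockdown and set passed at 3 sites on log2 odds, 0 by 5′ ends (Um3415, 0.0520), 0 by 3′ ends and 7 to 10 with 1 library left out. Centring takes off the shift in library medians, and the pooled spread of the all-group fit includes Fib cells. The cause of the changes was not tested for any setting. Same-numbered libraries outside the cells did not deviate together in every pair, and among those comparisons the replicate block moved the count only for 29 against 18 °C. The 3′-end tests and the left-out LacZ libraries between sets were added after the data had been seen. Near a score of 1 few ends remain, which limits what a single library can show.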
